A study of Drosophila melanogaster with 8 samples.

Results

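The genes described here are the core of the Dpp pathway, the bone morphogenetic protein (BMP) branch of TGF-beta signalling in Drosophila melanogaster. They are 10 of the 15682 gene rows measured, chosen by symbol for their place in the pathway, with earlier results of these data known. Among them are the ligands dpp and gbb, the receptors tkv, sax and put, and the signal transducer Mad. The rest, brk, Dad, salm and bi, respond to the signal. All 10 had a row and all 10 passed the filter on low counts. No activin ligand or activin Smad is among them, and put alone serves both branches, so the activin genes are given with the wider pathway.

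RNA was sequenced from pooled, dissected larval eye disc tumours of 2 groups of 4 libraries each. Both groups carried the same tumour genotype, ras1 G12V; csk -/-, an activated Ras together with loss of the kinase that restrains Src. It was made in GFP-labelled clones by an eyeless-driven recombinase, with a Q156Stop allele of csk, so the discs also held tissue outside the clones. CD larvae were raised on a control diet with 0.15 M sucrose and taken at day 8, and HSD larvae on a high sucrose diet with 1.0 M sucrose and taken at day 14, both as late larvae. Age therefore went wholly with diet and the effects of age and diet cannot be told apart.

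In this pathway a secreted BMP dimer brings together type I and type II receptor kinases on the cell surface. The type I receptor phosphorylates Mad, which enters the nucleus with its partner Medea. There the complex activates some genes and silences brk, a repressor that otherwise keeps Dpp target genes off, and it induces Dad, an inhibitory Smad that dampens the signal. In the developing eye disc, Dpp is known for its expression at the morphogenetic furrow, the moving front behind which photoreceptors form.

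Total counts ranged from 11558860 to 19963565 per library. On the second principal component of log2 CPM (counts per 1000000 TMM-scaled counts), CD replicate 1 and HSD replicate 4 stood away from the rest, and each fold change below was recomputed without both, with dpp then at 0.78, brk at 0.70 and bi at -0.91. CD replicate 1 also held 4600 CPM of salivary gland markers, against 5.31 to 16.5 CPM in the other CD libraries. Fat body markers summed to 2387 CPM in CD replicate 1 (1652 to 1729 CPM in the other CD libraries) and to 3427 CPM in HSD replicate 4 (856 to 1473 CPM in the other HSD libraries), and haemocyte markers were also highest in HSD replicate 4, at 224 CPM. Ras85D stood at 276 to 304 CPM in CD and 517 to 626 CPM in HSD, and Csk at 223 to 240 CPM and 240 to 377 CPM, which does not separate transgene, mutant and native transcripts. All 10 eye-antennal disc markers were detected. Of them 8 fell and none rose, with ey, the eye selector gene, at 119 and 123 CPM on average. All 7 photoreceptor markers and all 11 neuronal markers tested fell, beside the same 26.2% of all genes. The summed neuronal markers went from between 2088 and 2557 CPM in CD to between 160 and 257 CPM in HSD. In such bulk tissue, fewer cells of a type and less RNA per cell cannot be told apart.

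Of the 10 members, 6 passed an adjusted p of 0.05 (edgeR's quasi-likelihood test, Benjamini-Hochberg over all 9257 genes tested), 4 higher and 2 lower in HSD. Among all genes tested, 52.1% passed, 25.9% higher and 26.2% lower, so the members' count stood close to the share of any genes. dpp, brk, Dad and gbb rose, bi and Mad fell, and the receptors tkv, sax and put and the target gene salm did not pass. No member changed by 2-fold or more, where 21.7% of all genes did so past the threshold, 7.14% higher and 14.6% lower. The median log2 fold change of the 10 was -0.03, against 0.00091 over all genes tested. In 5 members the CPM of the diets did not overlap, 4 with HSD higher and 1 with HSD lower, beside 24.9% and 25.6% of all genes (50.5% in either direction).

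**Figure D1:**
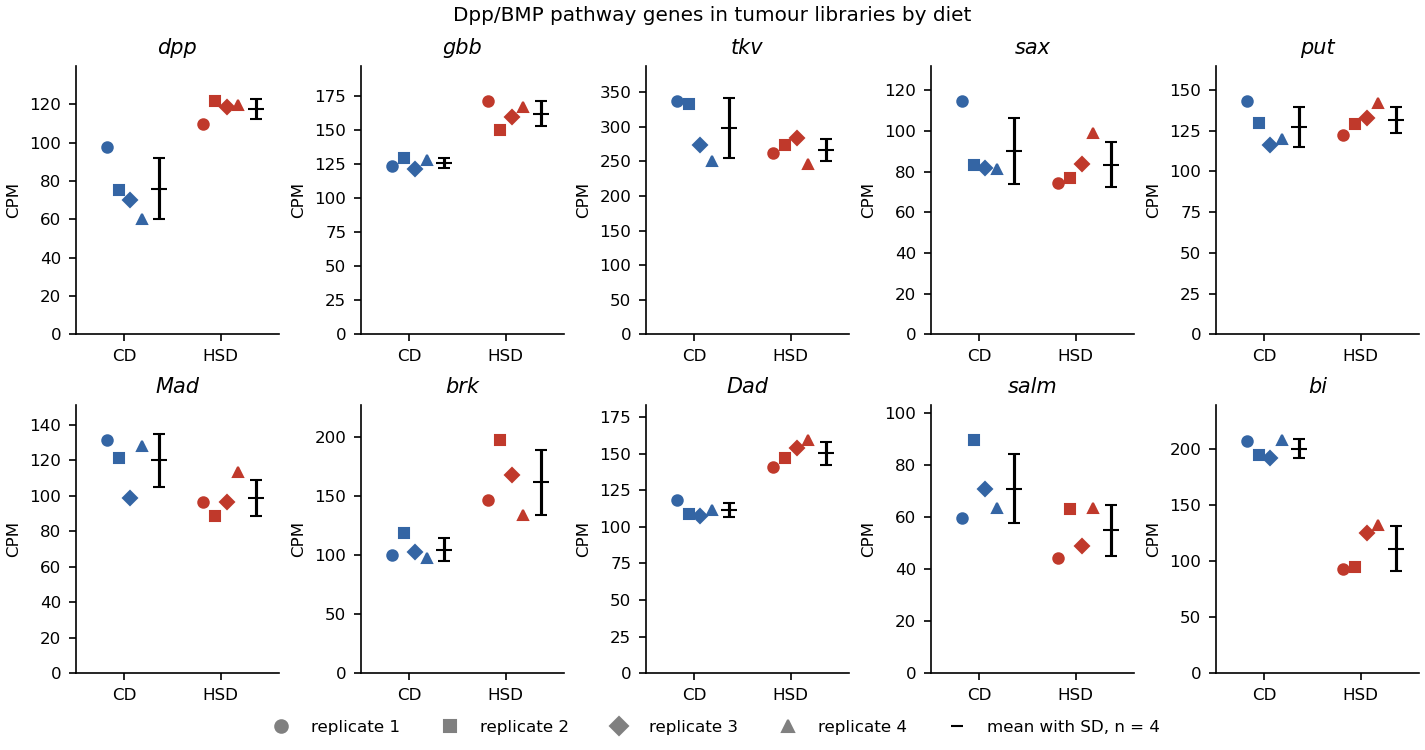
Level of each of the 10 members in CPM (vertical axis, from 0) in the 4 CD libraries (blue) and the 4 HSD libraries (red), with the mean and SD of each diet in black. For dpp, gbb, brk and Dad every HSD point lies above every CD point, for bi every HSD point lies below, and the remaining 5 panels overlap.

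The gene dpp encodes the Drosophila counterpart of vertebrate BMP2 and BMP4 (FBgn0000490, chromosome 2L, 2428372 to 2459823 in the BDGP6 annotation). It stood at 97.9, 75.6, 70.3 and 60.3 CPM in CD replicates 1 to 4 and at 110.0, 122, 119 and 120.0 CPM in the HSD replicates. All HSD libraries were higher than the highest CD library, CD replicate 1, which lay closest to them. The log2 fold change was 0.63 (SE 0.13, 95% interval 0.34 to 0.92, adjusted p = 0.00193 by edgeR), a 1.55-fold rise from a mean of 76.0 ± 15.9 to 118 ± 5.19 CPM (SD, n = 4 each). The spread of dpp between libraries was wider in CD, with a coefficient of variation of 20.9% against 4.42% in HSD. Without CD replicate 1 the CD value was 11.3%.

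The second ligand, gbb, encodes a BMP of the BMP5, BMP6 and BMP7 class that can pair with Dpp (FBgn0024234, 2R, 23851562 to 23853247). Its CD libraries held 124, 130.0, 122 and 128 CPM and its HSD libraries 172, 151, 160 and 167 CPM. The diets did not overlap, and the log2 fold change of 0.36 (SE 0.07, 95% interval 0.22 to 0.51, adjusted p = 0.000826 by edgeR) was the smallest among the 4 members that rose. The ratio of dpp to gbb counts, which does not depend on how libraries are scaled, averaged 0.594 in CD and 0.725 in HSD, as geometric means. The difference of 0.29 on the log2 scale was within what other assignments of the libraries give (exact permutation test, p = 0.114, adjusted p = 0.191 over 5 ratios). The smallest p this design allows is 0.0286. The ratios of the diets overlapped.

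None of the 3 receptors passed under TMM, while tkv passed as lower under total counts alone (-0.30) and tkv and sax did so under ribosomal protein scaling (-0.51 and -0.46). tkv encodes the type I receptor that most Dpp signalling runs through (FBgn0003716, 2L, 5219000 to 5271384), and its levels were 337, 333, 274 and 251 CPM in CD and 262, 274, 284 and 246 CPM in HSD. The ranges overlapped, and the log2 fold change was -0.16 (95% interval -0.38 to 0.06, adjusted p = 0.196 by edgeR). That interval holds for TMM scaling only. Of the exon bases of tkv, 212 are shared with genes on the other strand, CR14033 and TpnC25D, and with the strand setting of the counting not stated their reads may add to it.

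The other type I receptor, sax, binds Gbb (FBgn0003317, 2R, 7806484 to 7810067). It stood at 114.6, 83.4, 81.8 and 81.5 CPM in CD and at 74.5, 76.7, 83.6 and 98.8 CPM in HSD, so that CD replicate 1 and HSD replicate 4 were the highest of their diets. The log2 fold change was -0.11 (95% interval -0.41 to 0.18, adjusted p = 0.501 by edgeR) and became 0.04 without CD replicate 1. CD replicate 1 and HSD replicate 4 were also the libraries with the most fat body markers of their diets, and CD replicate 1 the one rich in salivary gland markers. For put (143 and 142 CPM), Mad (132 and 113 CPM) and Dad (118 and 159 CPM) these libraries were the highest of their diets as well. In dpp, gbb, tkv, brk, salm and bi they were not both the highest. The part of these tissues in the levels of sax, put, Mad and Dad was not tested. put, the type II receptor for BMPs and activins (FBgn0003169, 3R, 14619030 to 14625703), ranged from 116 to 143 CPM in CD and from 123 to 142 CPM in HSD. Its change of 0.05 on the log2 scale (95% interval -0.14 to 0.23, adjusted p = 0.652 by edgeR) turned negative under upper-quartile factors, total counts alone and ribosomal protein scaling, and passed under none of them. The ratio of tkv to sax counts averaged 3.31 in CD and 3.21 in HSD (exact permutation test, adjusted p = 0.8), and that of put to tkv 0.428 and 0.494 (exact permutation test, adjusted p = 0.191).

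Mad encodes the Smad protein that the BMP receptors phosphorylate (FBgn0011648, 2L, 3146056 to 3159643). Its CD values were 132, 122, 98.6 and 128 CPM and its HSD values 96.5, 88.8, 96.5 and 113 CPM. CD replicate 3 lay within the HSD range, and the other CD libraries lay above it. The log2 fold change was -0.28 (SE 0.11, 95% interval -0.52 to -0.04), and its adjusted p of 0.0488 by edgeR sat just under the threshold. Leaving out 1 library at a time gave values between -0.35 and -0.21, and Mad passed only without CD replicate 3 or HSD replicate 4. Without any of the other 6 the adjusted p was 0.104 to 0.184.

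The largest fall among the members was that of bi, also called optomotor-blind, a T-box transcription factor that Dpp activates in the wing primordium (FBgn0000179, X, 4412856 to 4485647). It was at 207, 195, 192 and 208 CPM in CD and at 93.1, 94.7, 125 and 133 CPM in HSD. CD libraries were close to each other, and every HSD library was far below them, with HSD replicates 3 and 4 above replicates 1 and 2. The log2 fold change was -0.85 (SE 0.12, 95% interval -1.11 to -0.59, adjusted p = 0.000124 by edgeR), 1.801-fold lower. It passed under all 19 alternatives run, with values from -1.19 to -0.77.

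salm, a zinc-finger gene that Dpp also activates in the wing primordium (FBgn0261648, 2L, 11434311 to 11445614), held 59.5, 89.4, 70.7 and 63.5 CPM in CD and 44.2, 63.0, 48.8 and 63.4 CPM in HSD. HSD replicates 2 and 4 lay among the CD libraries. With a log2 fold change of -0.37 (SE 0.16, 95% interval -0.72 to -0.02, adjusted p = 0.0720 by edgeR) it missed the threshold. It passed in 10 of the 19 alternatives run. The ratio of salm to bi averaged 0.349 in CD and 0.494 in HSD (exact permutation test, p = 0.0571, adjusted p = 0.191), and the diets overlapped.

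The repressor gene brk (FBgn0024250, X, 7307939 to 7311132) is silenced by Dpp signalling, and Dad (FBgn0020493, 3R, 17054007 to 17070408) is induced by it. Both rose in HSD. brk had 99.9, 119, 103 and 97.5 CPM in CD and 147, 198, 168 and 134 CPM in HSD, with HSD replicate 2 the highest and HSD replicate 4 the lowest of that diet but still above every CD library. Its log2 fold change was 0.63 (SE 0.12, 95% interval 0.36 to 0.89, adjusted p = 0.00121 by edgeR).

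Dad held 118, 109, 107 and 112 CPM in CD and 141, 147, 154 and 159 CPM in HSD. Libraries of a diet were close together and the diets did not overlap. The log2 fold change was 0.43 (SE 0.07, 95% interval 0.28 to 0.58, adjusted p = 0.000346 by edgeR), a 1.35-fold rise. The ratio of Dad to brk averaged 1.07 in CD and 0.937 in HSD, and the difference was -0.19 on the log2 scale (exact permutation test, p = 0.371, adjusted p = 0.464). Under TMM the response genes thus moved in both directions. brk, known as silenced by the signal, and Dad, known as induced by it, rose side by side, while bi fell. The rises of brk and Dad did not pass under ribosomal protein scaling. Whether Dpp regulates these genes in this tissue was not tested.

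**Figure D2:**
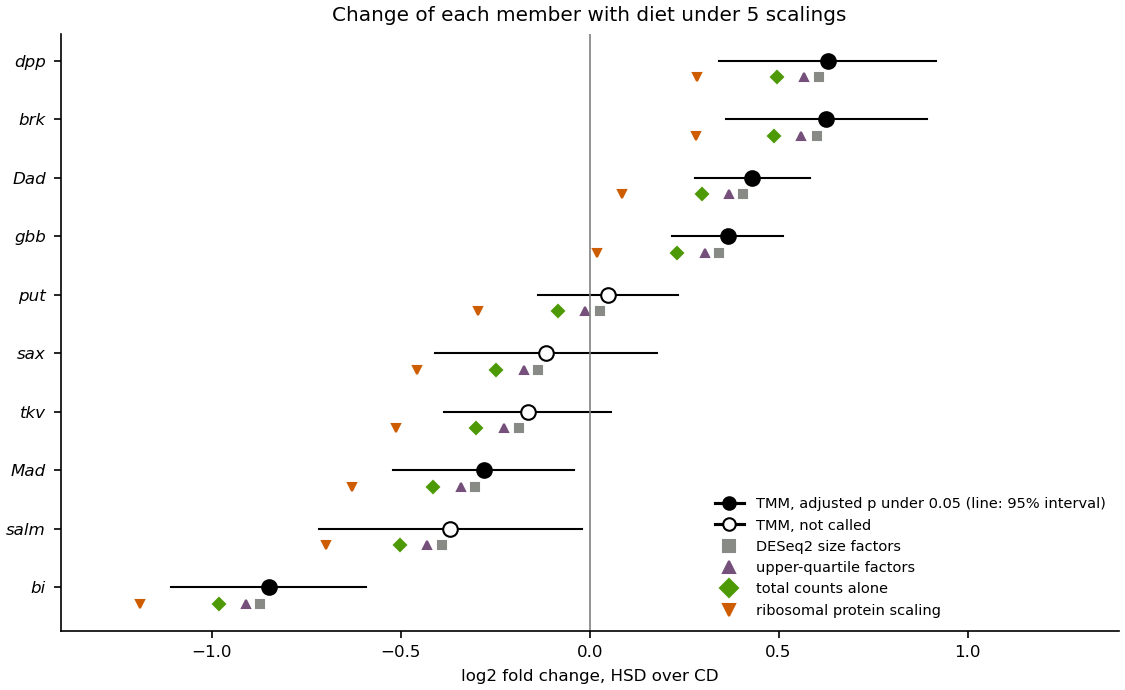
Log2 fold change of HSD over CD (horizontal axis) for each member, with the 95% interval of the TMM-scaled fit (circles, filled where the adjusted p is under 0.05) and the value under 4 other library scalings (small symbols). All symbols of bi lie left of 0; with ribosomal protein scaling the 4 members that rose shift to between 0.02 and 0.28.

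How libraries are put on one scale decided whether the rises passed. TMM (the trimmed mean of M values) assumes that most genes do not change, and the values above are relative to it. Under TMM 52.1% of all genes tested passed, 25.9% higher and 26.2% lower. Scaling to cytosolic ribosomal protein genes assumes instead that the summed RNA of those genes does not change. Neither assumption was tested. With libraries scaled to their cytosolic ribosomal protein genes, the median of all genes moved to -0.34, and none of the 4 rises passed: dpp was at 0.28, brk at 0.28, Dad at 0.09 and gbb at 0.02. Under that scaling 5 members passed, all lower, namely tkv, sax, Mad, salm and bi. Under DESeq2 size factors, upper-quartile factors and total counts alone, dpp, gbb, brk and Dad each still passed as higher.

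Levels of different genes were compared per kilobase of exon, as RPKM (the CPM divided by exon length in kilobases). In CD gbb (74.8 ± 2.23 RPKM, SD, n = 4) and tkv (67.3 ± 9.72) were the most abundant and did not separate from each other. The next 6, from Mad at 35.2 ± 4.35 to Dad at 28.5 ± 1.24, overlapped each with its neighbour in the order. dpp (14.6 ± 3.05) and salm (11.57 ± 2.17) were lowest and overlapped. In HSD gbb alone led at 96.3 ± 5.42 RPKM, followed by tkv (60.1 ± 3.68) and brk (50.6 ± 8.67), which overlapped. Dad (38.4 ± 2.05) stood apart below them and above put, sax and Mad, and dpp (22.6 ± 0.996) now overlapped bi (18.2 ± 3.33), above salm (8.97 ± 1.61).

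**Figure D3:**
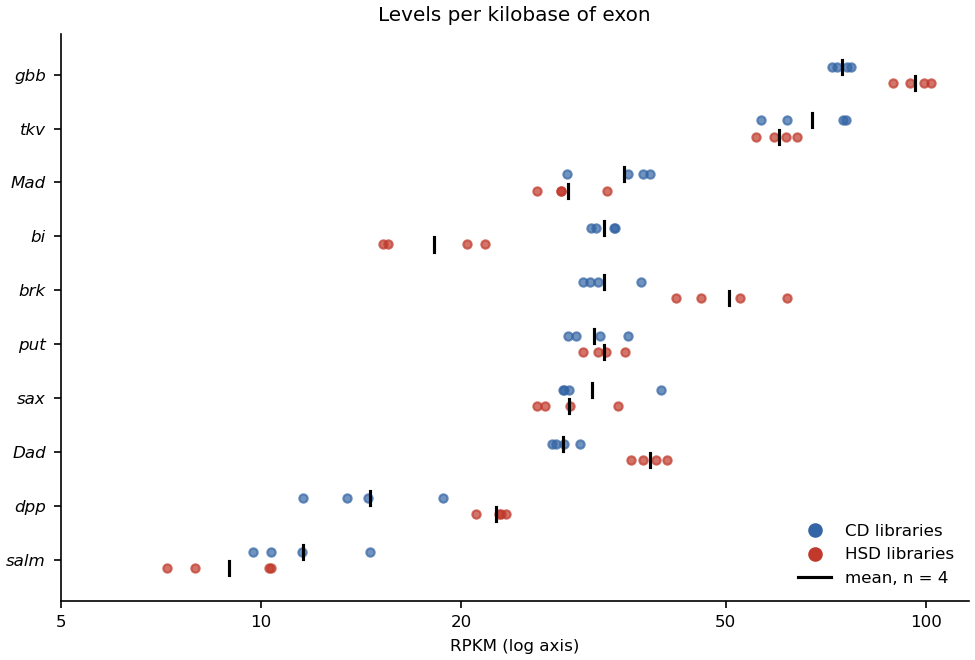
Level of each member per kilobase of exon (RPKM, log axis) in the 4 CD (blue) and 4 HSD (red) libraries, with means as black bars, ordered by the CD mean. gbb is the most abundant member in both diets, and bi drops from among the middle genes in CD to the level of dpp in HSD.

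The wider pathway was described from lists of 42 further genes, of which 40 had a row and 36 could be tested. The lists, too, were chosen with earlier results of these data known. Of these, 10 rose and 16 fell in HSD, where 25.9% of all genes rose and 26.2% fell. Med, the gene of the shared Smad partner, and Cv-d were not analysed here, because the identifiers known for them matched no row, and an older identifier may hold their counts. tsg, srw and zen were listed at 0 in every library and scw had at most 10 counts, so none of these 4 was tested.

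The largest rises in the wider lists were those of extracellular modulators and carriers. Of the 10 tested, 7 rose and 1 fell, beside 25.9% and 26.2% of all genes, with a median log2 fold change of 0.71. sog, the fly Chordin, which binds BMPs in the extracellular space, held 167, 123, 114 and 130.0 CPM in CD and 454, 568, 494 and 419 CPM in HSD. The diets were far apart, and the rise was 3.63-fold (log2 difference 1.86, SE 0.13, adjusted p = 1.12e-06 in the edgeR fit). dally, a glypican that carries Dpp along the cell surface, stood at 451, 426, 372 and 392.4 CPM in CD and at 1246, 1507, 1228 and 1088 CPM in HSD, 3.09-fold higher (log2 difference 1.63, SE 0.10, adjusted p = 5.05e-07 in the edgeR fit). Also higher were cv-2, a BMP-binding protein (1.51), the second glypican dlp (0.95), tld, the protease that cleaves Sog (0.90), cv, a Tsg-family protein (0.53), and magu, a secreted SMOC-family protein (0.41). The 3 tracheal markers tested also rose, from between 923 and 1033 CPM summed in CD to between 1401 and 2115 CPM in HSD, and their part in these rises was not tested. With ribosomal protein scaling, sog, dally, cv-2, dlp and tld still passed as higher and cv and magu did not.

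In the same list kek5, a leucine-rich-repeat membrane protein, fell by 0.51 (log2; edgeR, adjusted p = 0.0227), a call lost without CD replicate 2, 3 or 4. The activin-binding follistatin gene Fs (0.26) and the protease gene tok (-0.14) did not pass. With ribosomal protein scaling tok was at -0.48 and passed as lower, and Fs was at -0.09. Without HSD replicate 4, tok had a log2 fold change of -0.27 and passed, and without HSD replicate 2, Fs had one of 0.36 and passed. cv, Fs and magu share exon bases with genes on the other strand, which makes their counts less certain.

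Of the 4 further ligands tested 1 rose and 2 fell, and both further receptors and the activin Smad fell, beside 25.9% of all genes higher and 26.2% lower. Actbeta, an activin ligand, went from 38.8, 53.4, 65.5 and 66.6 CPM in CD to 2.19, 5.37, 4.28 and 6.05 CPM in HSD, 12.6-fold lower (log2 fold change -3.66, SE 0.30, adjusted p = 2.95e-06 by edgeR). wit, a type II BMP receptor known from motor neuron synapses, stood at 89.9, 102, 98.7 and 108 CPM in CD and at 24.2, 25.7, 32.7 and 38.0 CPM in HSD, 3.31-fold lower (log2 difference -1.73, SE 0.14, adjusted p = 3.33e-06 in the edgeR fit). In both genes the diets were far apart, and the summed neuronal markers were lower in every HSD library than in every CD library. So were the summed markers of neuroblasts (241 to 256 CPM in CD, 89.1 to 133 CPM in HSD), glia (683 to 749, 518 to 597) and prothoracic gland (136 to 186, 8.96 to 53.9). Tracheal markers rose, and summed muscle, fat body, haemocyte and salivary gland markers overlapped between diets. The part of any of these tissues in the falls of Actbeta and wit was not tested. Of the exon bases of wit, 400 are shared with dib, a gene on the other strand. dib averaged 12.8 CPM in CD and 1.94 CPM in HSD.

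**Figure D4:**
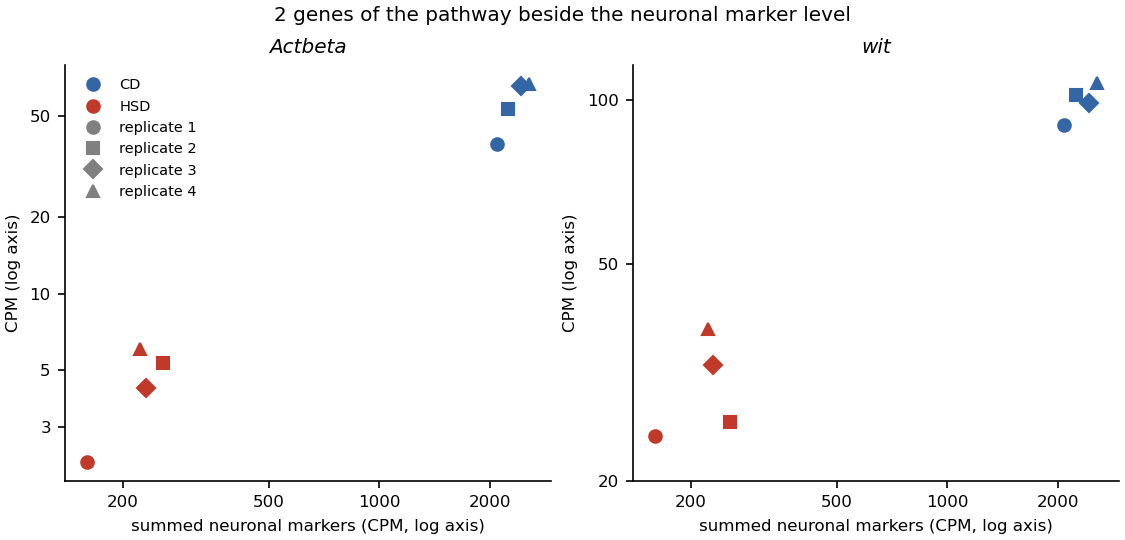
CPM of Actbeta (left) and wit (right) in each library (vertical, log axis) against the summed CPM of the 11 neuronal marker genes in the same library (horizontal, log axis), with CD in blue and HSD in red. The 4 HSD libraries lie at 160 to 257 CPM of neuronal markers and the 4 CD libraries at 2088 to 2557 CPM, with no library between.

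babo, the type I activin receptor, held 170.3, 175, 166 and 195 CPM in CD and 126, 145, 144 and 134 CPM in HSD (log2 fold change -0.36, SE 0.08, adjusted p = 0.00207 by edgeR). Smox, the activin Smad, held 171, 197, 203 and 183 CPM in CD and 121, 136, 124 and 145 CPM in HSD (log2 fold change -0.52, SE 0.08, adjusted p = 0.000333 by edgeR). Neither gene overlapped between diets. The TGF-beta ligand mav also fell, by 0.41 on that scale, and myo, at -0.14, did not pass, though it passed as lower under upper-quartile factors (-0.20), total counts alone (-0.28) and ribosomal protein scaling (-0.49). daw, another activin-like ligand, was the only one of the 4 further ligands tested to rise. Its levels were 17.4, 14.5, 11.1 and 10.5 CPM in CD and 31.4, 50.6, 22.7 and 17.3 CPM in HSD (log2 fold change 1.19, SE 0.31, adjusted p = 0.00794 by edgeR), and HSD replicate 4 lay just under CD replicate 1.

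Inside the cell, 2 of 7 regulators and cofactors rose and 3 fell, beside 25.9% and 26.2% of all genes. shn encodes the zinc-finger partner with which Mad and Medea silence brk, and it rose from 103, 101, 96.5 and 96.4 CPM in CD to 146, 162, 148 and 158 CPM in HSD (log2 fold change 0.63, SE 0.07, adjusted p = 2.01e-05 by edgeR). Snoo, a Ski-family Smad cofactor, fell from 92.2, 104, 96.5 and 106 CPM to 57.6, 59.6, 63.9 and 70.7 CPM (log2 fold change -0.66, SE 0.09, adjusted p = 0.000111 by edgeR). The diets did not overlap in either gene. The acetyltransferase gene nej fell by 0.52 on that scale and Smurf, an E3 ligase that acts on Mad, by 0.30. CtBP, a co-repressor that Brk uses, rose by 0.22, which was lost under total counts alone and turned to -0.12 under ribosomal protein scaling. The other co-repressor of Brk, gro, and the phosphatase gene Pdp were at -0.05 each and did not pass. With ribosomal protein scaling both were at -0.39 and passed as lower.

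None of the 12 further Dpp target genes tested rose and 7 fell, beside 25.9% and 26.2% of all genes, with a median log2 fold change of -0.54. The list was not limited to targets known in the eye disc, and whether Dpp regulates these genes in this tissue was not tested. Ance, an angiotensin-converting enzyme, fell from 887, 1038, 991 and 932 CPM in CD to 327, 392.1, 335 and 426 CPM in HSD (log2 fold change -1.38, SE 0.09, adjusted p = 8.44e-07 by edgeR). dac, a retinal determination gene, fell from 290, 322, 291 and 308 CPM to 110.0, 93.1, 129 and 154 CPM (log2 fold change -1.32, SE 0.13, adjusted p = 1.27e-05 by edgeR). Every HSD library was below every CD library in both. lab, at -1.44, eya at -1.31, peb at -1.17, salr at -0.54 and ush at -0.53 also fell, while tup, vg, Doc1, Doc2 and pnr did not pass, with values between -0.15 and 0.30. With ribosomal protein scaling tup was at -0.49 and passed as lower. dac and eya are also among the eye-antennal disc markers, and the photoreceptor markers fell in the same libraries, from between 2074 and 2423 CPM summed in CD to between 82.7 and 174 CPM in HSD. Most of that sum was pros, and the other 6 summed to between 425 and 466 CPM in CD and between 78.0 and 134 CPM in HSD. Whether a smaller share of disc cell types had a part in these falls was not tested.

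**Figure D5:**
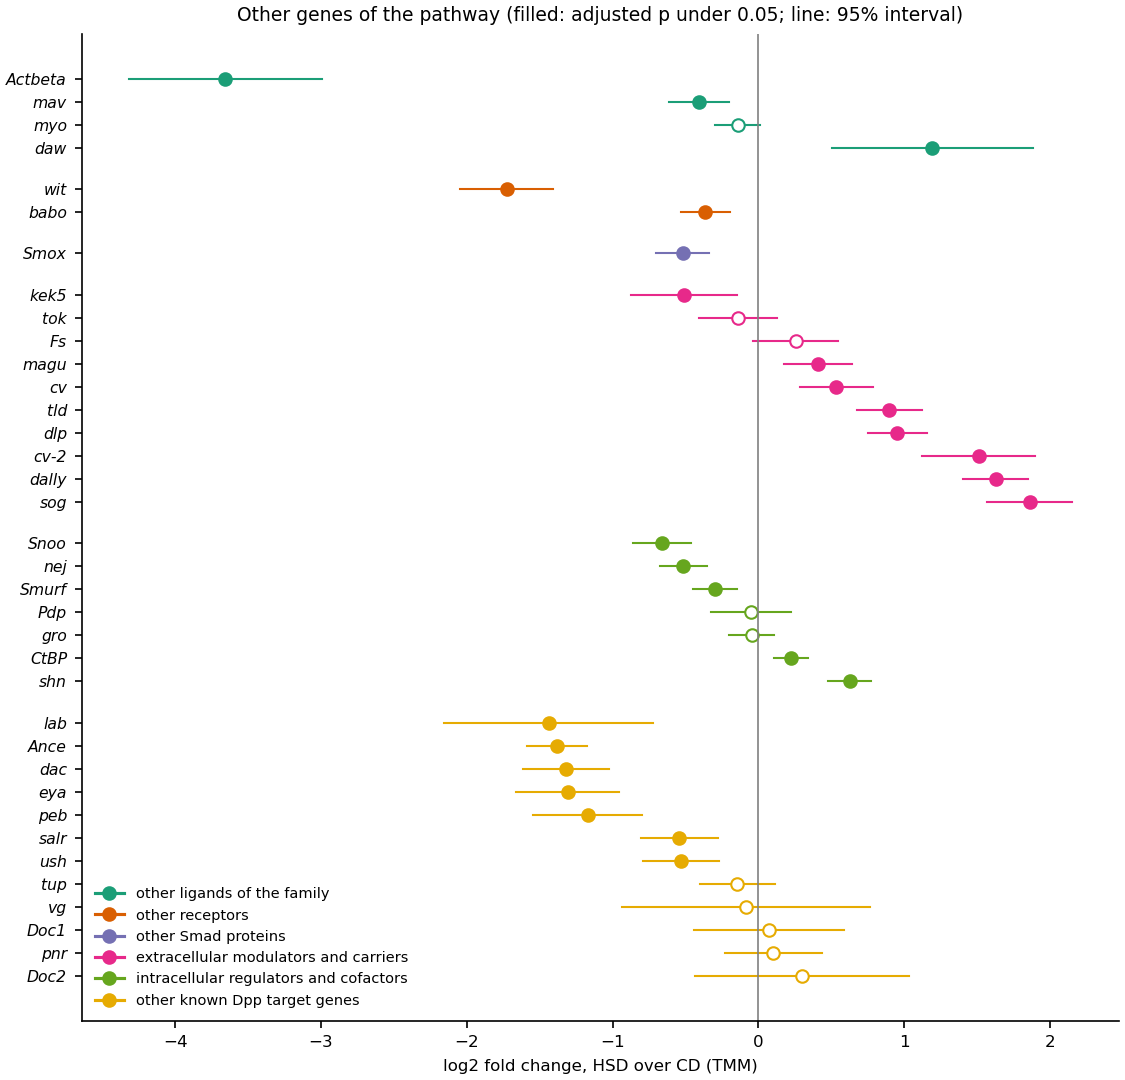
Log2 fold change of HSD over CD with its 95% interval (horizontal axis, TMM scale) for the 36 further pathway genes tested, coloured by list and filled where the adjusted p is under 0.05. Extracellular modulators reach 1.86 for sog, no Dpp target gene has a filled circle right of 0, and Actbeta lies lowest at -3.66.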

How the data were processed

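Per the labels, libraries came from total RNA with a stranded mRNA kit and were sequenced as paired reads. The submitters' processing notes name CASAVA 1.8.4, Trim Galore 0.4.4, TopHat2 2.0.11, the dm3 genome and featureCounts. The values the authors deposited are raw counts of reads per gene. Strand setting and multiple alignments are not given in the sources used here. Of 15682 identifiers, 15002 matched a symbol. The 680 that did not held 9.33% to 10.5% of the counts of a library. Positions and exon lengths come from the BDGP6 annotation, another build, and no coordinate was converted.

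Columns were assigned by their names in the labels. Genes passing filterByExpr (9257) were scaled by TMM and tested on diet with edgeR 4.0.16 (R 4.3.3), two-sided. The study's methods name DESeq2, which was run as an alternative (1.42.0), as were limma-voom (limma 3.58.1), 4 other scalings, 2 other filters, an adjusted p of 0.01, each library left out and a replicate block. CPM and RPKM used TMM-scaled sizes. The SE is the fold change divided by the square root of F. Ratios added 1 count to each gene and were tested over all 70 assignments of libraries. The planned ratio of Mad to Med was not run, since the identifier the reference gives for Med matched no row and an older one was not searched for, and motifs and sequences were not analysed here, as no sequence was at hand.

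Libraries of a diet differed beyond counting error (chi-square per degree of freedom at least 11.4). The study describes the libraries of each diet as biologically independent samples, while the labels give only replicate numbers. Members and lists were chosen with earlier results of these data known. Named genes are all 10 members, any tested gene of the wider lists, and, with values in every library, the 2 genes of each wider list with the largest change among those called at a mean of at least 10 CPM.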

Additional observations from a re-analysis of the deposited data

Results flagged for a closer look

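Within each diet the log2 CPM of each member was examined for a library far from the other 3, 20 groups of 4 libraries in all, where chance sets apart about 1. It did so in 1 group: sax in CD, where replicate 1 stood at 114.6 CPM against 81.5 to 83.4 CPM in the other 3 (Dixon's ratio 0.9335, above the limit for 4 values). Without that library the log2 fold change of sax was 0.04, with an adjusted p of 0.766 by edgeR.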

How the results depend on the processing

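In all 19 alternatives bi passed as lower, from -1.19 to -0.77 on the log2 scale. The rises of dpp (0.28 to 0.80), gbb (0.02 to 0.41), brk (0.28 to 0.72) and Dad (0.09 to 0.48) kept their direction and passed in all but ribosomal protein scaling, where they stood at 0.28, 0.018, 0.28 and 0.086 (adjusted p by edgeR 0.138, 0.884, 0.0886 and 0.521). That scaling gave tkv -0.51, sax -0.46, put -0.30 and salm -0.70, left 0 members higher and 5 lower, called 1073 genes higher and 3948 lower, 2 extracellular modulators lower, and 1 intracellular regulator higher and 5 lower. Of all calls 21.4% were then higher, against 49.8% under TMM and 38.1% under total counts alone. Total counts alone gave tkv -0.30, put -0.085, salm -0.50, 4 members lower and 1 intracellular regulator higher. Upper-quartile factors gave put -0.012 and salm -0.43. salm also passed with at least 10 counts in every library (-0.41), under DESeq2 (-0.39) and under limma-voom (-0.39). At an adjusted p under 0.01, Mad (-0.28) was lost, leaving 1 member and 0 modulators lower.

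With each library left out, sax ranged from -0.20 to 0.042, Mad from -0.35 to -0.21, salm from -0.44 to -0.21 and the log2 ratio of tkv to sax from -0.10 to 0.076. Between 1 and 3 members were lower, 1 of them without CD replicate 2 or 4 or HSD replicate 1, 2 or 3, and 0 to 2 modulators. salm passed without CD replicate 1 (adjusted p = 0.0465 by edgeR) or HSD replicate 4 (0.0436). Without both, a choice made after seeing the data, salm was at -0.51 and 2 modulators were lower.

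Replicate numbers were shared between diets, but same-numbered libraries did not deviate together (r from -0.152 to 0.0748, 0 of 8 libraries closest to their own number). With the replicate block 4609 genes were called, against 4823, and salm, at -0.37, passed with an adjusted p of 0.0292 by edgeR.

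Among genes that did not pass, signs turned for Fs (-0.094), pnr (-0.25), Doc1 (-0.29) and Doc2 (-0.030) under ribosomal protein scaling, as did that of CtBP (-0.12), which had passed. Under total counts alone pnr was at -0.035 and Doc1 at -0.064. Pdp was at 0.051 without CD replicate 1, 0.021 without CD replicate 2 and 0.035 without CD replicate 1 and HSD replicate 4, gro at 0.011 without CD replicate 4 (lowest -0.083), vg at 0.023 with the replicate block, 0.30 without CD replicate 3 (lowest -0.27) and 0.0025 without HSD replicate 1, and Doc1 at -0.11 without HSD replicate 1 (highest 0.23). The causes of these changes were not tested.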

Other observations

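The following ratios were chosen after their values were seen and are given as descriptions, with no test. Per kilobase of exon, sog stood at 1.38, 1.32, 1.31 and 1.74 times the level of dpp in CD replicates 1 to 4 and at 3.34, 3.78, 3.37 and 2.83 times in HSD. For cv-2, another BMP-binding protein gene, the ratio to dpp ranged from 0.604 to 0.858 in CD and from 0.809 to 1.505 in HSD, and the diets overlapped. dally stood at 1.26 to 1.55 times the level of tkv in CD and at 4.27 to 5.44 times in HSD. The ratio of brk to bi ranged from 0.895 to 1.17 in CD and from 1.94 to 3.98 in HSD. That it did not overlap between diets follows from brk being higher and bi lower in every HSD library than in every CD library. None of these ratios depends on library scaling.

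The protease genes tok and tld lie next to each other on chromosome 3R, on the same strand and 605 bp apart in BDGP6. Under TMM tld passed as higher and tok did not pass, and under ribosomal protein scaling tok passed as lower (-0.48). The RPKM ratio of tld to tok went from 0.293 to 0.387 in CD up to 0.508 to 0.861 in HSD, with HSD replicate 4 at the low end. The paralogues salm and salr, 60674 bp apart on 2L, had log2 fold changes of -0.37 and -0.54, of which the second alone passed by edgeR.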
